A study of Mus musculus with 8 samples.

Results

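The genes described here encode subunits of the vacuolar ATPase (V-ATPase), enzymes and membrane proteins of lysosomes, and the transcription factors *Tfe3* and *Tfeb*. They were taken as a list of 32 symbols, and all 32 were found among the 52550 genes of the count table through their Ensembl identifiers. Of these, 31 had a level of at least 1 CPM (reads of a gene scaled to a common total of gene reads) in each of the 4 input libraries, as had 10754 genes in all, and these entered the tests. The exception was *Atp6v0c*, the proton-binding proteolipid, which had 2 reads in input EV replicate 2 and 0 in the other libraries. Of its processed pseudogenes, *Atp6v0c-ps2* had 7 reads in input EV replicate 1 and *Atp6v0c-ps1* had 0 throughout. Whether reads of *Atp6v0c* were lost among reads with several alignments was not tested.

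The V-ATPase is a rotary proton pump. Its cytosolic V1 sector hydrolyzes ATP, and its V0 sector carries protons across the membrane, so that the lysosomal lumen becomes acidic and the hydrolases in it become active. The hydrolases and the membrane proteins are made on ribosomes at the endoplasmic reticulum, whereas V1 subunits are made in the cytosol. TFEB and TFE3 bind CLEAR elements, which are E-boxes in the promoters of many lysosomal genes, and mTORC1 restrains them from the lysosomal surface. In embryonic stem cells (ESCs), TFE3 in the nucleus supports self-renewal, and folliculin helps to exclude it when cells leave the naive state.

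RNA bound to the helicase eIF4A2, a paralog of the translation initiation factor eIF4A1, was sought by anti-Flag RNA immunoprecipitation and sequencing (RIP-seq). All libraries came from mouse *Eif4a2* KO ESCs kept in ES-DMEM with 2i and LIF. The cells carried an empty vector (EV) or re-expressed Flag-tagged full-length eIF4A2 (eIF4A2FL), and from each an input and an M2 anti-Flag RIP were sequenced in 2 replicates. This gave 8 libraries in 4 groups, namely input EV, input eIF4A2FL, RIP EV, and RIP eIF4A2FL. The eIF4A2FL replicates are described in the study as separate clones, which are few lines to stand for the genotype. No such statement was found for EV, so that p-values there measure only the spread between libraries, which may be technical. One field of the labels of RIP eIF4A2FL replicate 2 reads Eif4a3, against Eif4a2 in its other fields. RIP-seq of the isoform with a premature stop codon was not analysed here.

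Reads on genes ranged from 2044853 to 11206420 per library. The RIP EV libraries stood apart by a biological coefficient of variation of 159%, against 23.0% to 30.0% within the other groups. They had 19.9% and 29.9% of their reads on genes. Input EV replicate 2 was as low, at 30.0%, and the other libraries had 40.9% to 68.2%. The 10 naive ESC markers all passed the filter and summed to between 2414 and 3490 CPM in the inputs. Markers of fibroblasts, primitive endoderm, and macrophages summed to at most 6.87, 4.02, and 0.649 CPM in any library, and none of them passed the filter. In bulk RNA, fewer cells with a transcript and less of it per cell cannot be told apart.

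The palindrome TCACGTGA, the core of the CLEAR element, was searched in promoters from 250 bases before to 50 bases after the start of each gene (RefSeq, GRCm38.p6), which were at hand for 25 of the 32 genes. It reads the same on both strands and contains the shorter E-box CACGTG. It was found in 7 of the 25 promoters (28.0%), against 1.13% of 27025 genes with a promoter and 2.38% of the expressed ones. The windows below are shown because these letters are shared by genes of different lysosomal parts. Each has 30 bases, 5′ to 3′ on the strand of the gene, with the motif in capitals.
Atp6v0d1 (V0 subunit d1), chr8:105566050-105566079, minus strand: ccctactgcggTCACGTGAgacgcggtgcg
Atp6v0e (V0 subunit e1), chr17:26676387-26676416, plus strand: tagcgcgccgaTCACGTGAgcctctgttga
Atp6v1a (V1 subunit A), chr16:44139373-44139402, minus strand: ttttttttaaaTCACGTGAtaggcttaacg
Ctsa (cathepsin A), chr2:164833749-164833778, plus strand: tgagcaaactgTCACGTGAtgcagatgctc
Ctsd (cathepsin D), chr7:142387908-142387937, minus strand: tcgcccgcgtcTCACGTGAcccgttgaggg
Gla (alpha-galactosidase A), chrX:134601215-134601244, minus strand: taagcgattgaTCACGTGAgcatctacgtc
Mcoln1 (a lysosomal cation channel), chr8:3500462-3500491, plus strand: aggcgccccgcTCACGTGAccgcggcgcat
*Ctsa* and *Gla* each held another copy in the same promoter. The shorter CACGTG was in 10 of the 25 promoters (40.0%), which added *Atp6v0b*, *Ctsl*, and *Lamp1*, against 8.09% of all genes and 12.5% of the expressed ones. The CLEAR element is known from promoters of lysosomal genes, so the higher shares in this list are no independent result. These matches describe letters in a window, not bound sites, and TFE3 binding was not measured here. Of the 7 genes with the longer motif, 1 (*Atp6v0e*) was among the transcripts that differed between RIP and input below. Over all transcripts, 8.46% were lower and 8.44% higher in that comparison. A relation between motif and recovery was not tested.

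Together the 32 genes took 0.483% and 0.553% of gene reads in input EV, 0.521% and 0.692% in input eIF4A2FL, 0.272% and 0.318% in RIP EV, and 0.473% and 0.444% in RIP eIF4A2FL. Their share was thus lowest in both RIP EV libraries, and the RIP eIF4A2FL libraries lay below both inputs of the same cells. The V1 subunits held the largest summed level of any class in each library, from 797 CPM in RIP EV replicate 1 to 2667 CPM in input eIF4A2FL replicate 2. A QuantSeq library gives about 1 tag per transcript near its 3′ end, so CPM was compared between genes without division by length. Over the 31 tested genes, input levels ran from 5.31 CPM for *Gla* in input EV replicate 2 to 1229 CPM for *Atp6v1f* in input eIF4A2FL replicate 2.

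**Figure D1:**
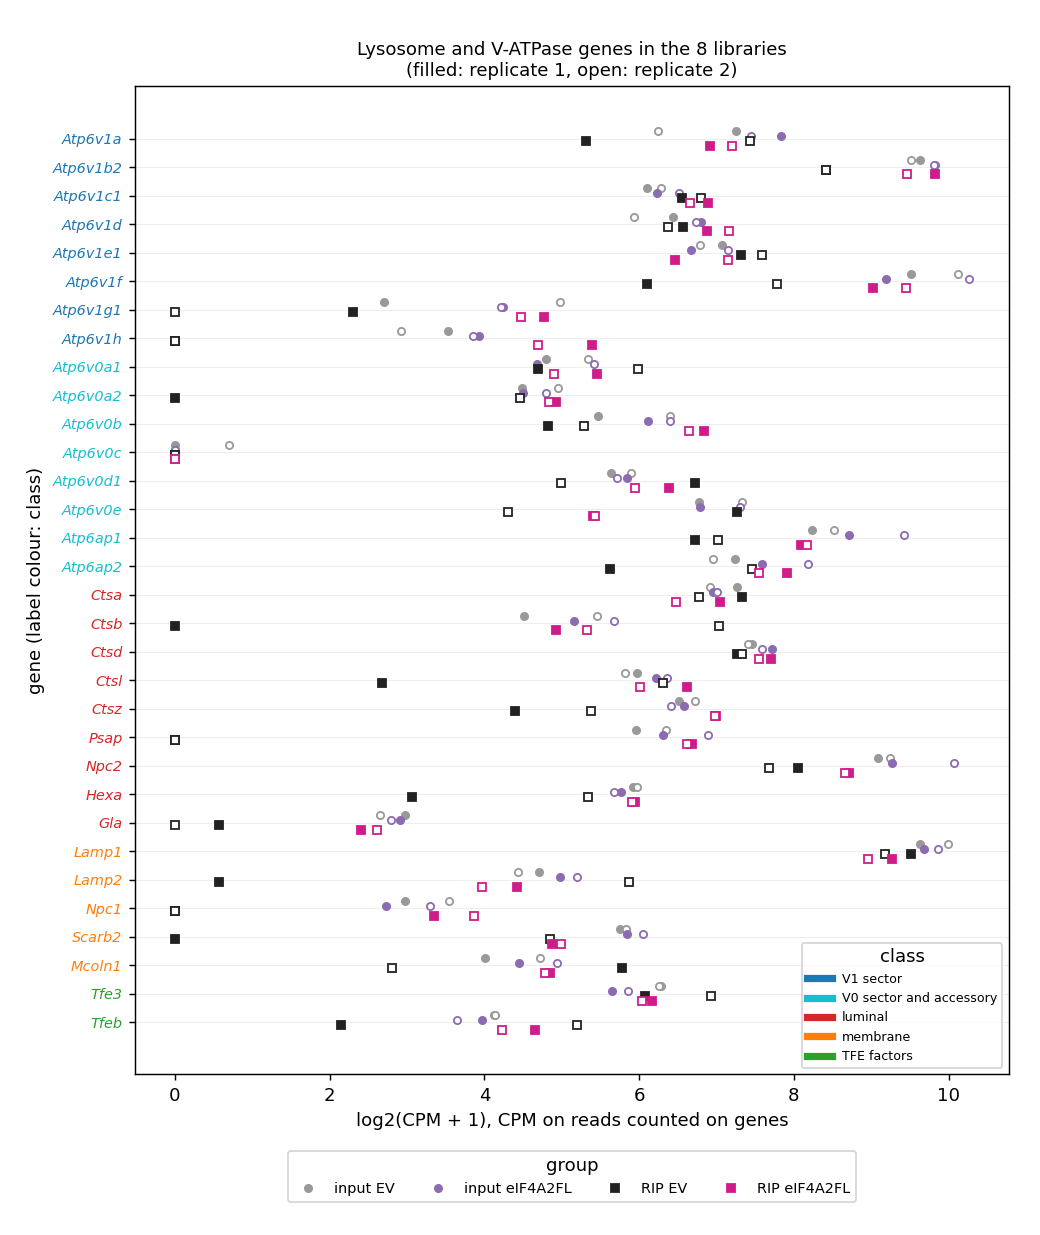
Level of each of the 32 genes in the 8 libraries as log2(CPM + 1), on reads counted on genes, with 1 point per library, filled for replicate 1 and open for replicate 2. The RIP eIF4A2FL replicates differed by less than 2-fold on this scale for 31 of 31 tested genes (95.2% of all transcripts). The RIP EV replicates did so for 16 of 31 (46.4% of all transcripts), and several RIP EV points sit at 0.

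The first question was whether these transcripts were recovered with Flag-eIF4A2FL in proportion to their abundance. Levels were taken as the mean of log2(CPM + 1) over the replicates of a group. In eIF4A2FL cells the RIP level lay within 2-fold of the input level for 28 of 31 genes, against 75.8% of all transcripts tested (27 genes and 72.2% by mean CPM). The Spearman rho between RIP and input levels over the 31 genes was 0.94, and it was 0.92 over all transcripts, which share libraries and are given without a p. EV cells hold no Flag-tagged protein, and in them 14 of 31 genes lay within 2-fold (33.3% of all transcripts, or 17 genes and 37.7% by mean CPM) and rho was 0.88. Most of these transcripts therefore had a RIP level close to their input level in eIF4A2FL cells, while the EV immunoprecipitate varied more. The 32 genes had median input levels of 61.5 to 82.2 CPM, against 21.0 to 23.1 CPM over all transcripts tested. The part of abundance in their agreement was not tested.

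Compared with their own input, 6 of the 31 genes were lower in RIP eIF4A2FL and 0 were higher by the quasi-likelihood test of edgeR, with p-values adjusted over all transcripts (Benjamini-Hochberg, 0.05). Over all 10754 transcripts, 8.46% were lower and 8.44% were higher. The 6 were the V0 subunit *Atp6v0e*, the V-ATPase accessory protein *Atp6ap1*, the luminal cholesterol carrier *Npc2*, and the membrane proteins *Scarb2*, *Lamp1*, and *Lamp2*. Fold changes include the TMM scaling of edgeR between libraries, and CPM values do not. A fold change is therefore not the log2 ratio of the CPM values printed beside it. The median log2 fold change was −0.28 over the 31 genes and 0.02 over all transcripts. Scaled by library size alone, these medians were 0.02 and 0.32, the calls were 4 lower and 1 higher (*Atp6v1h*), and *Lamp1* and *Lamp2* were lost, while 5.27% of all transcripts were lower and 18.0% higher. The RIP libraries also decided the number of calls. Without RIP eIF4A2FL replicate 1 only *Atp6v0e* passed, with 4.80% of all transcripts lower and 5.34% higher. Without replicate 2 only *Atp6v0e* and *Scarb2* did, with 4.23% lower and 3.75% higher. With all 8 libraries in the fit, where the spread of RIP EV is shared with the other groups, edgeR called 0 of the 31 genes (0% of all transcripts higher and 0.0558% lower), whereas DESeq2 on all 8 called *Atp6ap1*, *Npc2*, and *Lamp1* lower (4.00% of all transcripts lower and 2.55% higher).

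*Atp6v0e* encodes a small hydrophobic V0 subunit. Its level was 110 and 158 CPM in input eIF4A2FL and 41.3 and 42.0 CPM in RIP eIF4A2FL. The RIP values were close to each other and below both inputs, and the log2 fold change was −1.98 (adjusted p = 0.00393 by edgeR, standard error 0.28, n = 2 per group). It stayed between −2.18 and −1.75 and passed with each of the 4 libraries left out. In EV cells it was at 109 and 159 CPM in the inputs and at 153 and 18.8 CPM in RIP EV, so the EV immunoprecipitates lay on both sides of the eIF4A2FL ones.

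*Atp6ap1* assists assembly of the V0 sector. It was at 419 and 686 CPM in input eIF4A2FL and at 271 and 286 CPM in RIP eIF4A2FL, a log2 fold change of −1.28 (adjusted p = 0.0204 by edgeR, standard error 0.30). Its input EV levels were 301 and 367 CPM and its RIP EV levels 104 and 128 CPM, so that both kinds of cell had less of it in the RIP than in the input. The related accessory protein *Atp6ap2*, the prorenin receptor, was at 192 and 289 CPM in input eIF4A2FL and at 240 and 186 CPM in RIP eIF4A2FL. These ranges overlapped, and the change of −0.48 did not pass (standard error 0.29, adjusted p = 0.271, edgeR). In EV cells *Atp6ap2* was at 150 and 123 CPM in the inputs and at 48.4 and 175 CPM in RIP EV. Of the other V0 subunits, *Atp6v0a1*, *Atp6v0a2*, *Atp6v0b*, and *Atp6v0d1* had changes from −0.19 to 0.18, and none passed.

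Among the membrane proteins, 3 of 5 were lower in the RIP, against 3 of 18 other lysosomal membrane proteins in the wider list below. *Scarb2*, which spans the lysosomal membrane and acts as a sorting receptor, was at 56.3 and 65.4 CPM in input eIF4A2FL and at 28.2 and 30.7 CPM in RIP eIF4A2FL, a log2 fold change of −1.35 (adjusted p = 0.0113 by edgeR, standard error 0.27). It was at 52.8 and 55.9 CPM in input EV, and at 0 and 27.8 CPM in RIP EV. Both RIP eIF4A2FL libraries were below both inputs of the same cells, and the RIP EV replicates disagreed.

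The LAMP glycoproteins line the lysosomal membrane. *Lamp1* was at 822 and 930 CPM in input eIF4A2FL and at 613 and 497 CPM in RIP eIF4A2FL, a change of −0.97 (standard error 0.27, adjusted p = 0.0376, edgeR). In EV cells *Lamp1* was at 790 and 1015 CPM in the inputs and at 728 and 579 CPM in RIP EV, and here too the RIP lay below the input. *Lamp2* was at 30.5 and 35.7 CPM in input eIF4A2FL and at 20.5 and 14.6 CPM in RIP eIF4A2FL, with a change of −1.22 (standard error 0.30, adjusted p = 0.0251, edgeR). *Lamp2* was at 25.0 and 20.6 CPM in input EV, and it had 1 and 193 reads in RIP EV, so its EV background was not settled. *Mcoln1* had a change of −0.20 that did not pass.

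The cholesterol exporter of the lysosomal membrane, *Npc1*, was at 5.63 and 8.83 CPM in input eIF4A2FL and at 9.19 and 13.6 CPM in RIP eIF4A2FL. The RIP values were above the inputs, but the change of 0.35 was smaller than its standard error of 0.42 (adjusted p = 0.591, edgeR). In EV cells *Npc1* was at 6.88 and 10.6 CPM in the inputs and had 0 reads in both RIP EV libraries. Its luminal partner *Npc2* was at 616 and 1069 CPM in input eIF4A2FL and at 419 and 403 CPM in RIP eIF4A2FL, a change of −1.33 (standard error 0.31, adjusted p = 0.0200, edgeR). In EV cells *Npc2* was at 543 and 607 CPM in the inputs and at 264 and 203 CPM in RIP EV. The EV immunoprecipitates were thus also below their inputs, as for *Atp6ap1* and *Lamp1*. How many of all transcripts lay below their input in EV cells was not counted. The median over all transcripts tested was 21.0 and 23.1 CPM in input EV and 3.91 and 22.1 CPM in RIP EV. In RIP EV, 43.4% and 23.7% of them had 0 reads. A lower level in RIP EV is therefore not shown to be particular to these genes.

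Of the 9 luminal proteins, *Npc2* was the only one that passed, and the median change of the class was −0.34. The carboxypeptidase *Ctsz*, at 94.6 and 83.8 CPM in input eIF4A2FL and at 127 and 125 CPM in RIP eIF4A2FL, was the highest of them, with a change of 0.19 that did not pass (standard error 0.26, adjusted p = 0.648, edgeR). It was at 90.5 and 104 CPM in input EV and at 20.1 and 40.7 CPM in RIP EV. The proteases *Ctsa*, *Ctsb*, *Ctsd*, and *Ctsl*, the saposin precursor *Psap*, and the glycosidases *Hexa* and *Gla* had changes from −0.71 (*Gla*) to −0.10 (*Hexa*), each with an adjusted p of 0.183 or more by edgeR. None of the 7 passed. On library size alone *Psap*, *Ctsl*, and *Hexa* had values above 0 (0.019, 0.06, and 0.21).

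None of the 8 V1 subunits passed, and their changes ran from −0.91 for *Atp6v1a*, the catalytic subunit A, to 0.93 for *Atp6v1h*, the regulatory subunit H. *Atp6v1a* was at 228 and 173 CPM in input eIF4A2FL and at 119 and 146 CPM in RIP eIF4A2FL, with an adjusted p of 0.0583 by edgeR, and DESeq2 on the same libraries called it lower (adjusted p = 0.0273) with the 6 others, where 10.2% of all transcripts were lower and 9.27% higher. It was at 152 and 74.9 CPM in input EV, and at 38.63 and 172 CPM in RIP EV. *Atp6v1h* was at 14.3 and 13.5 CPM in input eIF4A2FL and at 40.8 and 24.9 CPM in RIP eIF4A2FL, above both inputs but with an adjusted p of 0.0844 by edgeR (standard error 0.34). In EV cells it was at 10.6 and 6.55 CPM in the inputs and had 0 reads in both RIP EV libraries. *Atp6v1f* had a change of −0.86 (adjusted p = 0.128, edgeR), and the other V1 subunits lay between −0.47 and 0.11.

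*Tfe3* and *Tfeb* encode the regulators of the lysosomal program. *Tfe3* was at 49.3 and 57.0 CPM in input eIF4A2FL and at 71.1 and 64.7 CPM in RIP eIF4A2FL, a change of 0.05 (standard error 0.26, adjusted p = 0.918, edgeR). *Tfeb* was at 14.7 and 11.6 CPM in input eIF4A2FL and at 24.2 and 17.7 CPM in RIP eIF4A2FL, a change of 0.36 (standard error 0.34, adjusted p = 0.489, edgeR). Both lay above their inputs by CPM without passing. In RIP EV, *Tfe3* was at 66.5 and 121 CPM and *Tfeb* at 3.42 and 35.6 CPM, on both sides of RIP eIF4A2FL for *Tfeb*.

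Of the 6 transcripts that were lower, 0 belonged to the V1 sector, 2 of 7 to the V0 sector with its accessory proteins, 1 of 9 to the luminal proteins, 3 of 5 to the membrane proteins, and 0 of 2 to the TFE factors. The class medians were −0.21, −0.19, −0.34, −0.97, and 0.21 in the same order. Differences between classes were not tested. By CPM, both RIP eIF4A2FL libraries lay below both inputs for 8 genes and above both for 12, where 18.7% and 45.8% of all transcripts did so.

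**Figure D2:**
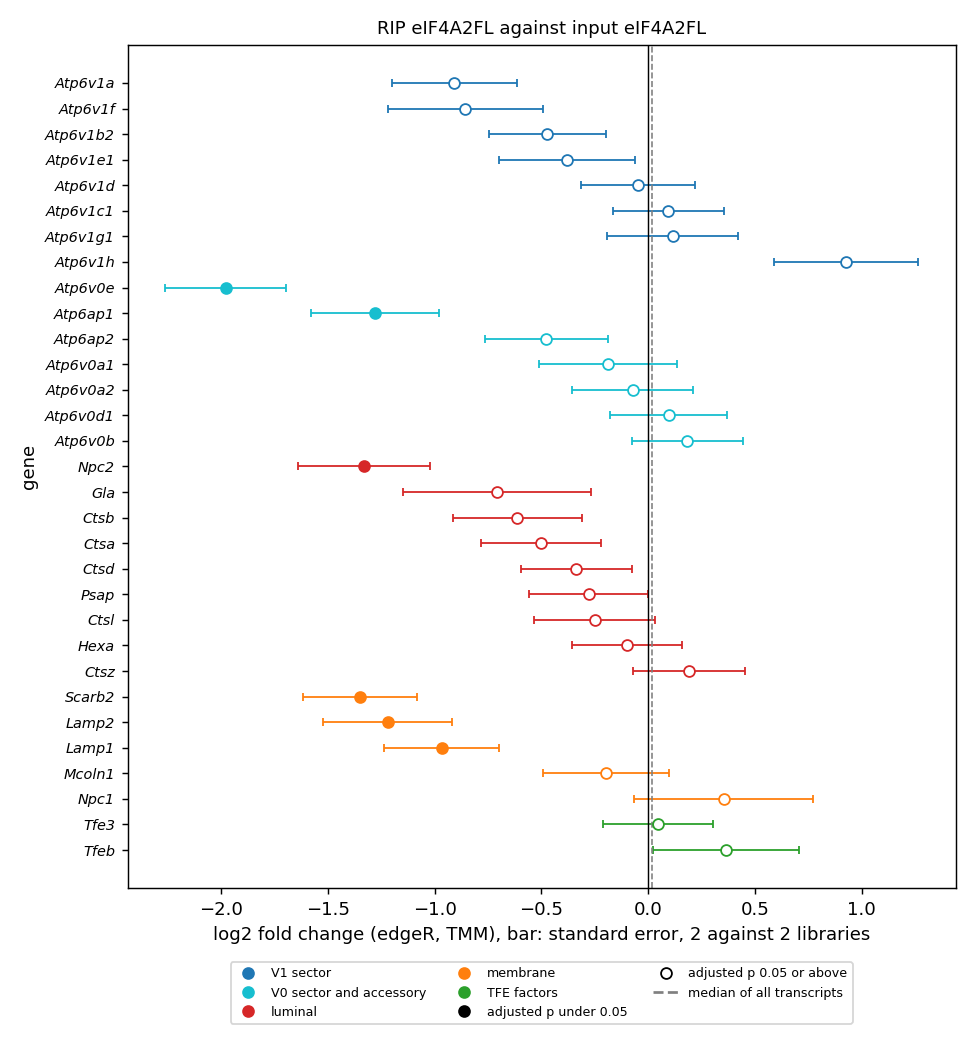
Log2 fold change of RIP eIF4A2FL against input eIF4A2FL for the 31 tested genes by class, with the standard error of edgeR as bars (2 libraries against 2), filled where the adjusted p was under 0.05. The 6 filled points lie between −1.98 and −0.97, none of them is a V1 subunit or a TFE factor, and the dashed line marks the median of all transcripts at 0.02.

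Whether the same change took place without Flag-tagged protein was asked with the interaction of cell line and immunoprecipitation over all 8 libraries. For none of the 6 transcripts did the change from input to RIP differ between eIF4A2FL and EV cells by edgeR's adjusted p. The difference was −0.03 for *Npc2* (standard error 0.45, adjusted p = 0.986), 0.25 for *Atp6ap1* (standard error 0.42, adjusted p = 0.811), and −0.50 for *Lamp1* (standard error 0.35, adjusted p = 0.447). For *Atp6v0e*, *Lamp2*, and *Scarb2* the standard errors were 1.22, 2.08, and 2.09, which left the difference unresolved. The median difference was −0.03 over the 31 genes and 0.64 over all transcripts. A p that misses the threshold does not show that the changes were alike.

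The interaction passed for 3 of the 31 genes, *Psap*, *Atp6v1h*, and *Npc1*, all with a larger RIP to input ratio in eIF4A2FL cells, and for 0 in the other direction. Over all transcripts 19.2% were higher and 2.10% lower in this sense. These 3 are the tested genes with 0 reads in both RIP EV libraries, as were 18.2% of all transcripts. Without input EV replicate 1, or without any 1 of the 4 eIF4A2FL libraries, 0 of the 31 and 0% of all transcripts passed this test. Without RIP EV replicate 1, 8 of them passed, with 35.9% of all transcripts higher and 11.8% lower, and without replicate 2, 16 passed, with 54.0% higher and 12.4% lower. In such fits the lone library of a group is taken to have the spread of the other groups. The interaction over all 8 libraries also takes a common spread per gene, although that of RIP EV was 159%, against 23.0% to 30.0% elsewhere. Its adjusted p may therefore be too small where RIP EV decides it. Voom with group weights called 0 of the 31 genes and 0 of all transcripts in the interaction. In RIP eIF4A2FL against RIP EV, *Psap*, *Atp6v1h*, and *Npc1* each had an adjusted p of 0.0650 by edgeR.

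The direct comparison of the immunoprecipitates, RIP eIF4A2FL against RIP EV, shares the RIP eIF4A2FL libraries with the comparison to input. It called 0 of the 31 genes, and 0% of all transcripts in either direction, by edgeR on these 4 libraries. Before adjustment, p was under 0.05 for 6 of the 31 genes, and for 2578 transcripts with a higher and 571 with a lower level. The count followed the tool, since DESeq2 on the same libraries called 3 of the 31 higher (*Psap*, *Atp6v1b2*, and *Atp6v1h*), with 7.75% of all transcripts higher and 4.96% lower. EdgeR on all 8 libraries called 6 of the 31 higher, with 24.8% of all transcripts higher and 5.46% lower. The median log2 fold change was 0.59 for the 31 genes and 0.67 for all transcripts. By CPM, RIP eIF4A2FL exceeded RIP EV in both libraries against both for 17 genes and was below for 1 (*Atp6v1e1*), against 51.9% and 12.1% of all transcripts.

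*Psap*, the precursor of the saposins that present lipids to hydrolases, had 1141 and 974 reads in RIP eIF4A2FL and 0 in both RIP EV libraries. It was at 61.1 and 80.2 CPM in input EV and at 78.6 and 118 CPM in input eIF4A2FL. At its mean input EV level it would have had 144 and 236 reads there. With a floor of 3 reads over both RIP EV libraries, which covers counting error only, *Psap* was at least 179-fold higher in RIP eIF4A2FL, or at least 68.0-fold without RIP EV replicate 2 and 111-fold without replicate 1. *Atp6v1h* was at least 59.0-fold and *Npc1* at least 20.5-fold higher on the same floor (22.4-fold and 7.78-fold without RIP EV replicate 2, 36.6-fold and 12.7-fold without replicate 1). Recovery in the RIP EV libraries was uneven also between replicates. *Ctsb* had 0 and 435 reads in them, and leaving out replicate 1 moved the number of the 31 genes called by edgeR from 0 to 19, with 43.8% of all transcripts higher and 21.6% lower. Leaving out replicate 2 moved it to 23, with 59.0% higher and 18.6% lower. The members' shares in these fits were near those of all transcripts.

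The inputs answer another question, whether re-expression of eIF4A2FL changed these mRNAs in *Eif4a2* KO ESCs. No gene of the 31 passed by edgeR, nor did any other transcript (0% in either direction, while an unadjusted p was under 0.05 for 402 with a higher and 394 with a lower level), while DESeq2 called 0.112% of transcripts higher and 0.0465% lower, none of them among the 31. The largest value was that of *Atp6ap2*, 0.80 (standard error 0.33, adjusted p = 0.666, edgeR), with the levels given above higher in both eIF4A2FL inputs than in both EV inputs. *Atp6v1a* had the same value, 0.80 (standard error 0.39, adjusted p = 0.687, edgeR), and *Atp6ap1* stood at 0.72 (adjusted p = 0.679, edgeR). *Atp6ap2* was also the only one of the 31 with an unadjusted p under 0.05.

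*Tfe3* and *Tfeb* were among the 3 genes, with *Hexa*, whose eIF4A2FL inputs both lay below both EV inputs by CPM. *Tfe3* was at 76.6 and 75.2 CPM in input EV, a change of −0.52 (standard error 0.31, adjusted p = 0.735, edgeR), and *Tfeb* at 16.4 and 16.5 CPM, a change of −0.33 (standard error 0.42, adjusted p = 0.885, edgeR). For 11 genes both eIF4A2FL inputs lay above both EV inputs. Over all transcripts, 19.8% were above and 17.3% below. The median change was 0.16 over the 31 genes and −0.01 over all transcripts, and it was 0.21 for V1 subunits, 0.01 for V0 subunits and accessory proteins, 0.22 for luminal proteins, and 0.16 for membrane proteins. No single change passed the adjusted threshold, which does not show that the input levels were alike.

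**Figure D3:**
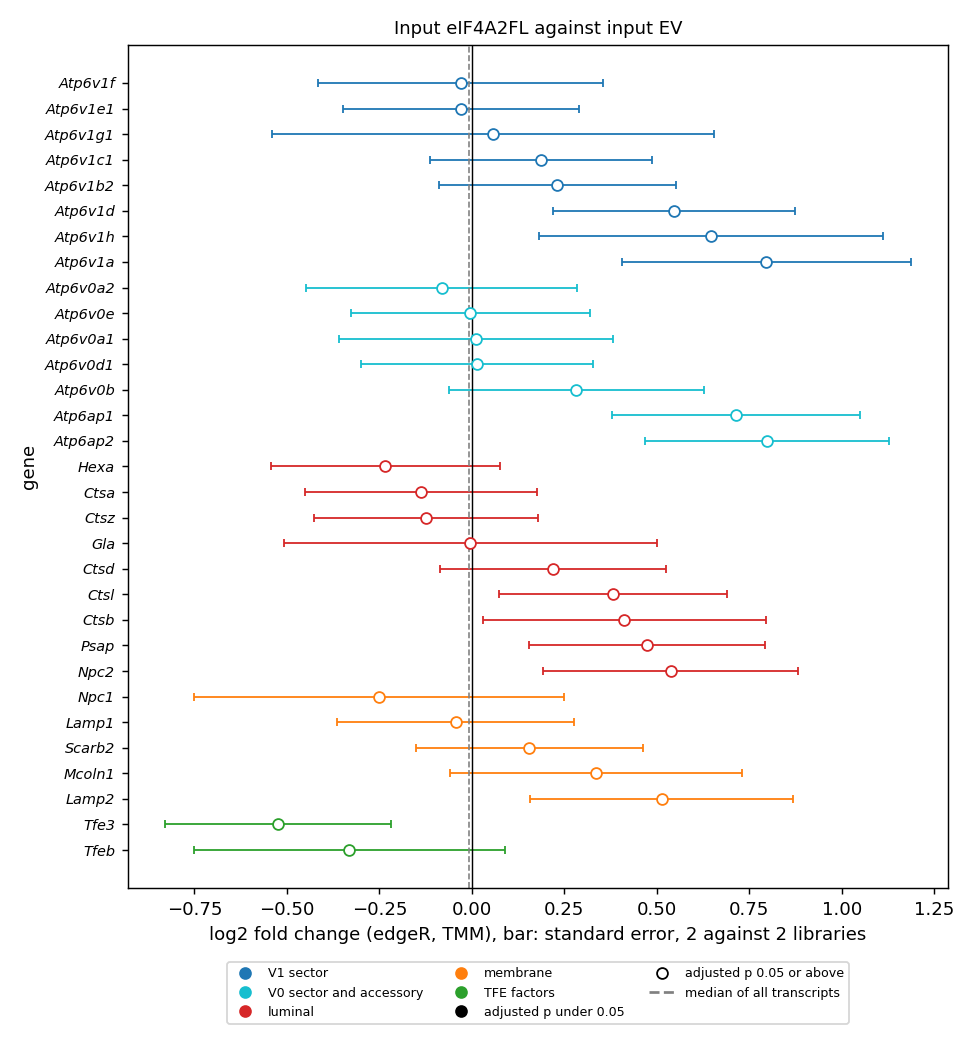
Log2 fold change of input eIF4A2FL against input EV for the 31 tested genes by class, with the standard error of edgeR as bars (2 libraries against 2). No gene passed the adjusted threshold, and the values run from −0.52 (*Tfe3*) to 0.80 (*Atp6ap2*).

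A wider list of 99 lysosomal genes, other V-ATPase subunits and assembly factors, hydrolases, membrane proteins, enzyme delivery proteins, and folliculin regulators, had 73 tested members. In RIP eIF4A2FL against input, 4 were higher and 6 were lower by edgeR (5.48% and 8.22% of the 73, against 8.44% and 8.46% of all transcripts), with a median of −0.14. These shares do not exceed those of all transcripts. *Igf2r*, the cation-independent mannose-6-phosphate receptor that delivers hydrolases, was at 12.1 and 7.39 CPM in input eIF4A2FL and at 55.6 and 56.6 CPM in the RIP, a change of 2.22 (adjusted p = 0.00486, edgeR). *Dmxl1*, which takes part in V-ATPase assembly, had a change of 1.65 (adjusted p = 0.0163, edgeR). It was at 5.41 and 8.19 CPM in input eIF4A2FL and at 23.6 and 29.3 CPM in the RIP. *Flcn*, which encodes folliculin, had a change of 1.45 (adjusted p = 0.0144, edgeR). It was at 10.6 and 11.1 CPM in input eIF4A2FL and at 40.8 and 32.8 CPM in the RIP. Input EV levels of *Igf2r*, *Dmxl1*, and *Flcn* were 13.1 and 8.11 CPM, 9.08 and 12.2 CPM, and 11.3 and 17.2 CPM in that order. RIP EV held *Igf2r* at 0 and 8.07 CPM, *Dmxl1* at 8.31 and 24.5 CPM, and *Flcn* at 65.5 and 31.7 CPM. For *Flcn* the EV immunoprecipitates were thus as high as those of eIF4A2FL cells.

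Progranulin (*Grn*), a secreted and lysosomal glycoprotein, had a change of −1.60 (adjusted p = 0.0128, edgeR), at 802 and 1503 CPM in input eIF4A2FL and at 448 and 480 CPM in the RIP. In EV cells *Grn* was at 625 and 849 CPM in the inputs and at 362 and 240 CPM in the RIP. The GM2 activator *Gm2a* had a change of −1.40, at 23.6 and 43.5 CPM in input eIF4A2FL and at 14.9 and 16.3 CPM in the RIP. The sialomucin *Cd164* had a change of −1.35, at 40.9 and 62.3 CPM in input eIF4A2FL and at 25.4 and 24.3 CPM in the RIP. In EV cells *Gm2a* was at 13.8 and 26.8 CPM in the inputs and at 0 and 15.5 CPM in the RIP, and *Cd164* was at 47.6 and 44.3 CPM in the inputs and at 7.82 and 20.3 CPM in the RIP. Further calls, named after their values were seen, were *Wdr7* higher and *Ctns* and *Cd63* lower. The class medians were −0.61 for the 18 other membrane proteins, −0.14 for the 35 other luminal proteins, and 0.81 for the 9 V-ATPase subunits, assembly factors, and regulators. Of the 9, 2 (*Dmxl1* and *Wdr7*) were higher and 0 lower. Both the other membrane proteins and the other luminal proteins had 3 lower and 0 higher. In the inputs none of the 73 passed, and the largest changes were 1.27 for *Fnip2*, a folliculin partner, and −1.48 for the lysosomal channel *Tmem175* (adjusted p = 0.660 for each, edgeR), both named after their values were seen.

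The change from input to RIP went with transcript length over all transcripts (Spearman rho 0.36 with the longest annotated transcript, n = 10751). The rho was 0.21 over the lysosomal genes (n = 104, the 31 included) and 0.02 over the 31 genes. Differences between these values were not tested, and a rho over 31 genes is imprecise. These are descriptions across transcripts that share libraries. The 6 lower transcripts had longest forms of 2189 to 4698 nt with a median of 3055.5 nt, and the other 25 had 806 to 6328 nt with a median of 2928 nt, so the lengths of the 6 lay inside those of the others. The highest called genes of the wider list, *Igf2r* and *Dmxl1*, have long transcripts. The part of length in these results was not tested.

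**Figure D4:**
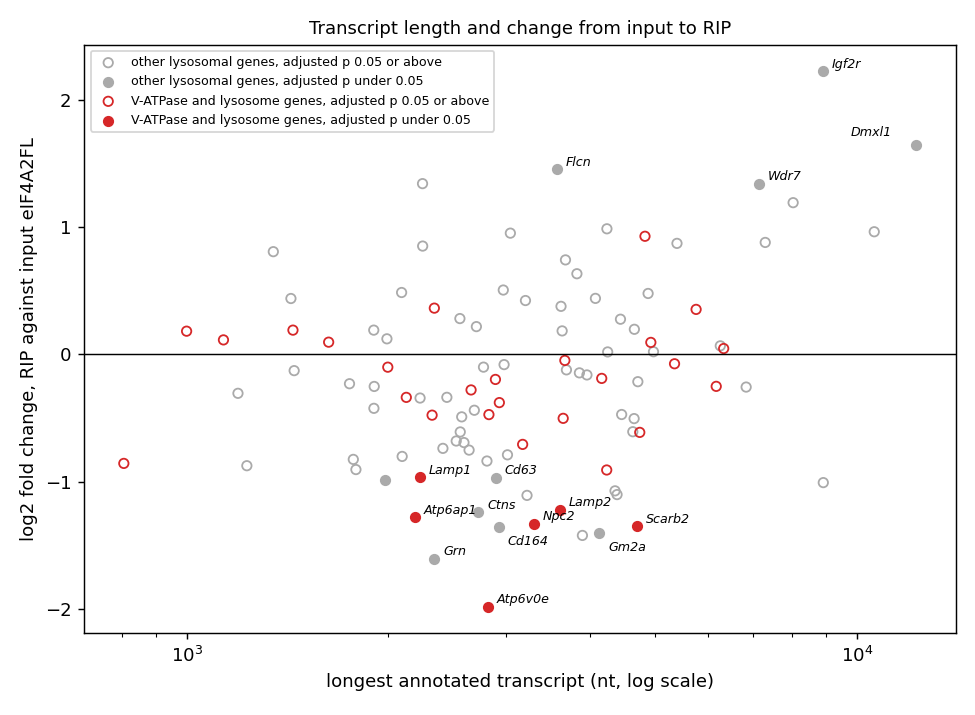
Log2 fold change of RIP eIF4A2FL against input eIF4A2FL (edgeR, TMM) against the longest annotated transcript in nt on a log axis, for 31 V-ATPase and lysosome genes (red) and 73 other lysosomal genes (gray), filled where the adjusted p was under 0.05. The filled red points lie at 2189 to 4698 nt, among the open ones.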

How the data were processed

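According to the study's methods, STAR (version 2.5.3a) aligned the QuantSeq reads to mm10, and HTSeq-count (version 0.11.2) assigned them to genes. The table the authors deposited holds raw counts, 1 column per library. The annotation release and strand setting were not given in the sources used here. Some of the genes overlap the span of a gene on the opposite strand, among them *Lamp1* and *Grtp1*, *Atp6v1h* and *Rgs20*, and *Npc1* and *Rmc1*. *Atp6v1e1*, *Atp6v0a1*, *Ctsd*, and *Ctsl* each overlap the span of an annotated gene on the same strand. Whether reads were lost or misassigned there was not tested. HTSeq summary lines (31.8% to 80.1% of the table) were left out. Names came from GENCODE for GRCm38, which held 52403 of the identifiers.

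Counts were kept for transcripts at 1 CPM or more in each of the 4 inputs and tested with edgeR (version 4.0.16) with TMM factors, on the 4 libraries compared (8 for the interaction), at a Benjamini-Hochberg adjusted p of 0.05. This fit was chosen because the groups differed in spread. Alternatives were other scalings, filters, and fits, DESeq2 (version 1.42.0), limma voom (version 3.58.1), the replicate block, and leaving out each library.

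The genes, lists, and tests were chosen with earlier results of these data known. CPM or reads in every library were given for genes called or with the 4 highest and 4 lowest RIP to input changes, the 2 largest input changes, *Tfe3*, *Tfeb*, *Lamp1*, and *Atp6ap2*, and for up to 3 called genes per direction of the wider list. Other values were chosen after they were seen. The values of 1 further called gene are not reported here.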

Additional observations from a re-analysis of the deposited data

Results flagged for a closer look

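The change from input to RIP differed between eIF4A2FL and EV cells for *Psap* (by 11.57 on the log2 scale), *Atp6v1h* (9.77), and *Npc1* (9.19), and for *Wdr7* (10.13) and *Ctns* (9.74) of the wider lysosomal list, each with adjusted p = 0.0176 by edgeR's interaction test over 8 libraries. Each had 0 reads in both RIP EV libraries, so the fitted sizes depend on a prior count and are no bounds. The test takes a common spread for groups whose spread differed, so its adjusted p may be too small here. Over the alternatives the difference of *Psap* ran from 8.25 to 11.87 and its adjusted p reached 0.161, which did not pass. *Wdr7* and *Ctns* were named after their values were seen, and only because they were also called against input. In this test 16 of the 73 genes of the wider list were higher and 1 was lower (21.9% and 1.37%). Over all transcripts the shares were 19.2% and 2.10%.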

How the results depend on the processing

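For RIP eIF4A2FL against input, the number of the 31 genes called was 6. It was 0 by edgeR and 3 by DESeq2 on all 8 libraries, and 1 to 7 with each library left out, and over all transcripts 1818 became 6, 704, and 858 to 2422. The median of the 31 genes was 0.019 on library size alone and −0.42 to −0.19 with a library left out. Against RIP EV, 0 of the 31 became 3 by DESeq2, 4 by voom, 6 by edgeR and 10 by DESeq2 on 8 libraries, and 0 to 23 with a library left out. Over all transcripts the corresponding counts were 1366, 2419, 3251, 4398, and 69 to 8349, with 29 without a filter on low counts, and the median of the 31 genes was 0.34 to 1.75 with a library left out. Between inputs 0 of the 31 passed under any alternative run, and over all transcripts 0 became 3 on library size alone, 17 by DESeq2, 16 by DESeq2 on 8 libraries, 55 without a filter, and 0 to 85 with a library left out. For the interaction, 3 of the 31 became 5 by DESeq2, 0 by voom, and 0 to 16 with a library left out, 2294 transcripts became 0 by voom and 0 to 7143, and the median of the 31 genes was −0.10 to 1.11. The cause was not tested.

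The sign turned for single genes when a RIP EV library was left out. Against RIP EV, the change without replicate 1 and without replicate 2 was 0.96 and −0.75 for *Atp6v0d1*, 0.89 and −2.08 for *Atp6v0e*, 1.92 and −1.19 for *Mcoln1*, −2.18 and 11.04 for *Ctsb*, −1.97 and 4.92 for *Lamp2*, and −1.02 and 2.40 for *Tfeb*. The interaction was −2.62 and 10.19 for *Ctsb*, −2.50 and 4.38 for *Lamp2*, and −1.02 and 8.72 for *Gm2a* in the same order.

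Samples with the same replicate number did not deviate together clearly (correlations 0.002, −0.03, and 0.12), and the labels tie them to nothing else shared. Input and RIP of eIF4A2FL cells with the same number may come from the same clone, which the labels do not state. The main test left out such a pairing. With the replicate number as a block, 5 of the 31 genes were called against input (all transcripts 1448), 2 against RIP EV (381), 0 between inputs (61), and 3 in the interaction (1738), and the medians of the 31 genes were −0.28, 1.00, 0.18, and 0.03. At the depth of the RIP EV libraries, a transcript with 0 reads in both may have had a level of up to 0.557 CPM, for counting error only.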
